A study of Homo sapiens with 9 samples.

Results

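The genes described here are the numbered zinc finger (ZNF) genes of human chromosome 19, and the measurement is where the splicing factor SF3B1 touched their RNA in K562 cells. Members were all protein-coding genes on chromosome 19 whose symbol is ZNF, a number and at most 1 further letter. RefSeq listed 246 such genes among 20037 protein-coding genes. The strand of 216 members was given by the RefSeq table of gene starts, and a site was counted when its centre lay in the RefSeq span of one of them on its strand. The other 30 members, whose strand is not in that table, are described apart. The members were compared with the 969 other protein-coding genes of chromosome 19 that have a strand, and with the 214 ZNF genes of the same form on the other chromosomes.

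Most numbered ZNF genes of chromosome 19 encode proteins with a row of C2H2 zinc fingers, each finger contacting a few bases of DNA, and many carry a KRAB domain at the amino end. The KRAB domain recruits TRIM28, which brings in the histone methyltransferase SETDB1 and HP1 proteins and so silences transposable elements and other targets. The family grew by tandem duplication, and for that reason its members stand side by side in large clusters on this chromosome and resemble each other in sequence. A KRAB zinc finger gene typically has a few small exons followed by a single long last exon that encodes the whole finger array. SF3B1 is a part of the U2 small nuclear ribonucleoprotein and binds introns around the branch point, close to their 3′ end.

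The series applied iCLIP, in which ultraviolet light links a protein to RNA and sequencing marks the linked nucleotide, to K562, an established human leukaemia line that the labels call lymphoid although it is known as a chronic myeloid leukaemia line. The 9 libraries comprised 3 of SF3B1 from cells of genotype SF3B1 wt/wt, 2 of SF3B1 from SF3B1 K700E/wt cells, and 4 of U2AF2 from SF3B1 wt/wt cells. All cells were irradiated with 400 mJ per cm2. The 1 table analysed is a merged list of 96852 SF3B1 sites of 5 nt, named in the labels of the 3 SF3B1 wt/wt libraries. Its header speaks of sites reproducible in all replicates of either condition, so single sites are not assigned to a genotype here. The list has no read numbers and no value per library: depth is unknown, no spread between libraries can be given, and no test between groups was possible. Intervals below cover counting error only, and neighbouring sites in a gene are not independent. Expression was not measured in the list, so a gene with few sites cannot be told apart from a gene with little RNA. Reads from near-identical ZNF copies can map to several genes, and the part of this in the counts was not tested.

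Few members were rich in SF3B1 sites, although members were hit about as often as the other protein-coding genes of the chromosome, when gene length was not matched. Of the 216 members, 74 contained at least 1 site, 34.3% (95% Wilson interval 28.3% to 40.8%), against a background of 33.1% over all 1185 protein-coding genes of chromosome 19 with a strand. The other protein-coding genes of the chromosome gave 32.8% (29.9% to 35.8%), and the 2 intervals overlapped. ZNF genes elsewhere gave 50% (43.4% to 56.6%), an interval that lay above that of the members, also without matching for length. Among all 15843 protein-coding genes with a strand the share was 40.3%.

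The number of sites per gene differed more than the share of genes with a site. The members held 213 sites, which was 7.63% of the 2793 sites in protein-coding genes of chromosome 19 with a strand, whereas their spans made up 23.4% of the summed span of these genes. Where a member had any site, the median was 2 (quartiles 1 and 3.75), against 4 (quartiles 2 and 10) in the other genes of the chromosome and 3 (quartiles 1 and 6) in ZNF genes elsewhere. A single site was all that 32 of the 74 members had, 43.2%, against 20.8% of the other chromosome 19 genes with a site. At least 5 sites were present in 12 members, 5.56%, beside a background of 14.1% over all protein-coding genes of chromosome 19 16.0% in the other genes alone and 18.2% in ZNF genes elsewhere. At least 10 sites were present in 3 members, 1.39%, against 84 other genes of the chromosome, 8.67%. The highest count was 13 sites in a member and 80 sites in another gene of the chromosome.

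**Figure D1:**
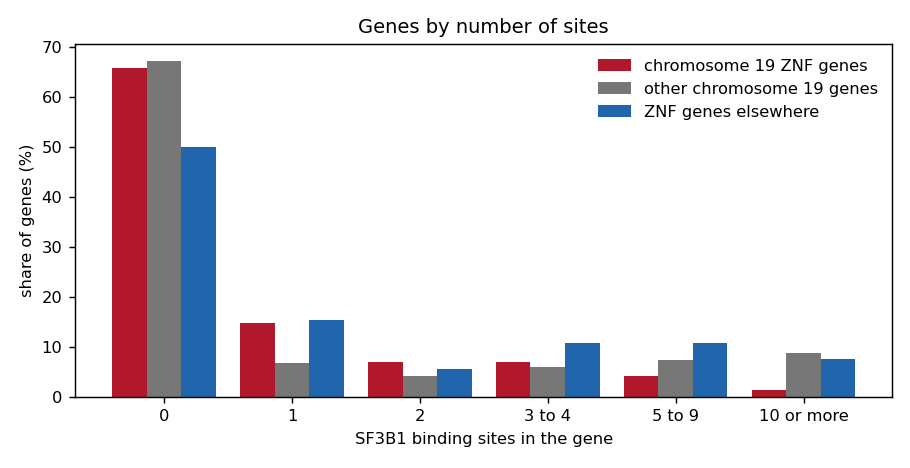
Share of genes (y axis, %) by number of SF3B1 sites in the gene (x axis) for the 216 chromosome 19 ZNF genes, the 969 other protein-coding genes of chromosome 19 and the 214 ZNF genes elsewhere. The bars at 0 sites are at 65.7% and 67.2% for the first 2 sets; the chromosome 19 ZNF genes are higher at 1 site (14.8% against 6.81%) and lower at 10 or more (1.39% against 8.67%).

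The members were not short genes. Their median span was 23.2 kb, against 12.6 kb in the other chromosome 19 genes. Per length they carried 3.33 sites per 100 kb (95% Poisson interval 2.90 to 3.81), against 12.4 (11.9 to 12.9) in the other genes of the chromosome and 6.67 (6.19 to 7.18) in ZNF genes elsewhere. The density was lower than in the other chromosome 19 genes, with intervals that did not overlap, in each of 4 length classes. Members of 20 to 40 kb had 4.84 sites per 100 kb (4.02 to 5.78) against 13.5 (12.5 to 14.5), and members of at least 40 kb had 2.43 (1.88 to 3.08) against 8.08 (7.52 to 8.66). In the same 2 classes the shares of genes with a site were close, 42.7% against 40% and 48.7% against 49.2%. Among members of 10 to 20 kb the share was 21.0% (12.7% to 32.6%) against 35.1% (29.6% to 41.0%), and under 10 kb it was 15.4% (6.15% to 33.5%) against 21.9% (18.03% to 26.33%). ZNF genes elsewhere gave 36% (20.2% to 55.5%) under 10 kb and 54.4% (41.6% to 66.6%) at 10 to 20 kb. They gave 44.1% (32.2% to 56.7%) at 20 to 40 kb and 56.2% (44.8% to 67.0%) from 40 kb. Only at 10 to 20 kb did their interval lie wholly above that of the members. Differences in these shares were not tested.

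**Figure D2:**
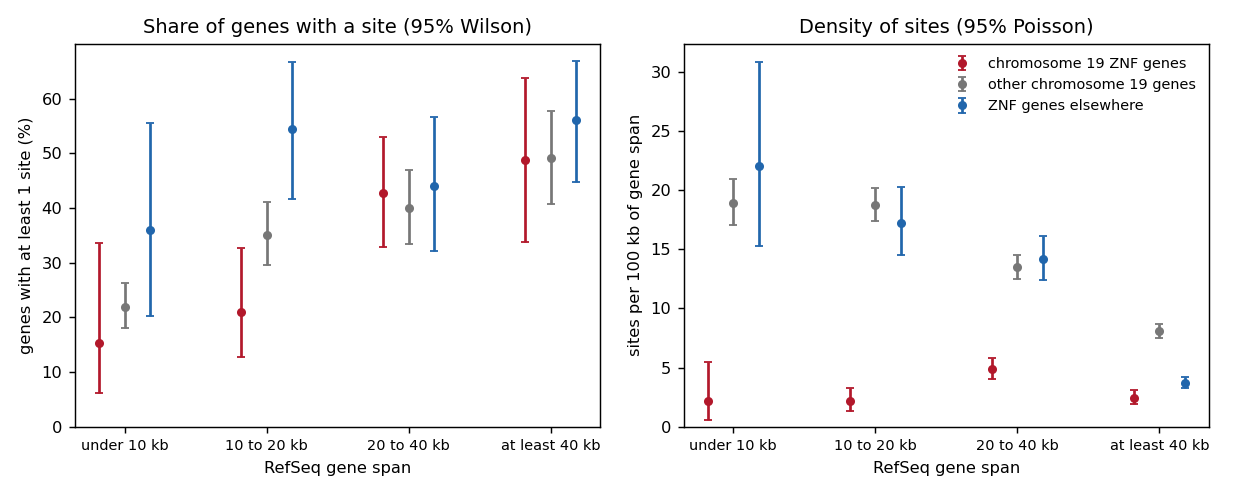
Left, share of genes with at least 1 site (%, bars are 95% Wilson intervals); right, sites per 100 kb of gene span (bars are 95% Poisson intervals), by RefSeq span in 4 classes for the 3 gene sets. In the right panel the chromosome 19 ZNF genes lie between 2.14 and 4.84 sites per 100 kb, below the other chromosome 19 genes in every class.

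Along the chromosome the members formed 20 runs when neighbours less than 500 kb apart were joined, and 10 runs had at least 5 members. The site-rich and the siteless members were spread unevenly over these 10 runs. The run between 8.51 and 9.79 Mb, with ZNF266 and ZNF317, had 30 sites, 9.80 per 100 kb of member span, and 6 of its 12 members with a strand had a site. The next run, between 11.5 and 12.6 Mb, had 4 sites in all in 24 members, 0.650 per 100 kb, and 3 of the 24 had a site (12.5%, Wilson interval 4.34% to 31.0%). Its longest stretch of neighbours without any site ran over 14 members, from ZNF491 to ZNF563.

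The large run between 19.7 and 24.1 Mb, beside the centromere, had 39 sites, and 12 of its 29 members with a strand had a site. It also contained a stretch of 12 neighbours without a site, from ZNF43 to ZNF724, though the strand of 5 of these is not given. The run from 36.2 to 37.8 Mb had 36 sites, 12 of them in ZNF146, and 12 of 25 members with a strand had a site. The run from 43.5 to 44.5 Mb had 16 sites and 6 of 19 members with a site. The run from 51.6 to 53.6 Mb had 43 sites, the most of any run, with a site in 15 of 32 members with a strand.

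In the run from 55.5 to 56.7 Mb a single member of 14, ZNF444, had a site, and it had 1. The last run, from 57.2 to 58.5 Mb, is the largest in number of members, and 9 of its 40 members with a strand had a site (22.5%, 12.3% to 37.5%), with 3.19 sites per 100 kb against 3.18 in the run beside the centromere. Of its 21 sites, 7 lay in ZNF274. Of the 2 runs with 5 members, the one from 2.82 to 2.94 Mb had 0 sites and the one from 34.7 to 35.0 Mb had 3, 1 in each of 3 of its 4 members with a strand. No test of the difference between runs was made.

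**Figure D3:**
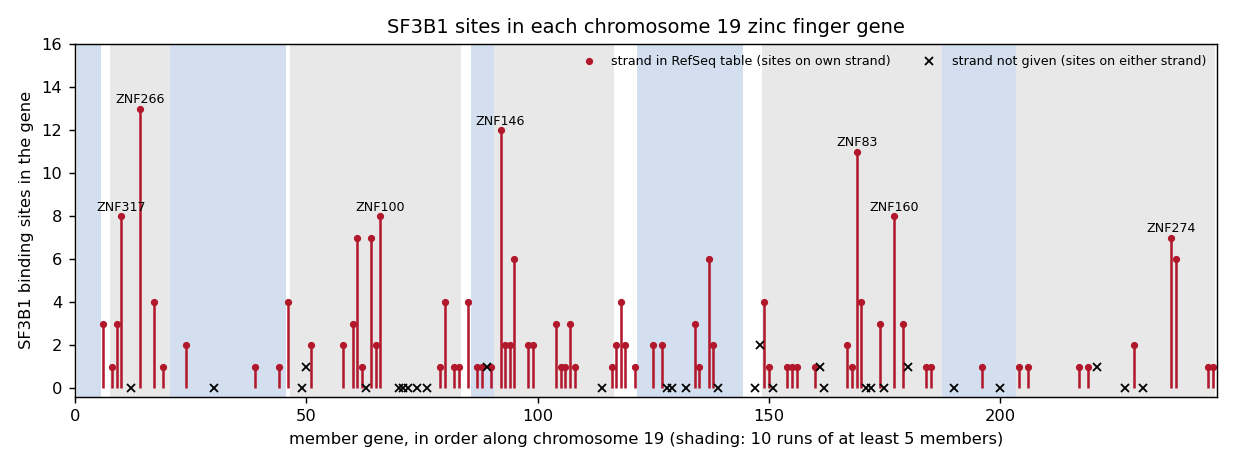
SF3B1 sites (y axis) in each of the 246 members in their order along chromosome 19 (x axis); shading marks the 10 runs of at least 5 members, and crosses mark the 30 members without a given strand, counted on either strand. ZNF266, ZNF146 and ZNF83 stand above 10 sites, and long stretches have none.

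Protein-coding genes with other symbols that lie within these runs numbered 75 with a strand, and 14 of them had a site, 18.7% (11.5% to 28.9%), beside 34.3% of the members and the background of 33.1%. Their density was 3.56 sites per 100 kb (2.76 to 4.51), an interval that overlapped that of the members, 3.33 (2.90 to 3.81). The member values cover all 216 members with a strand, of which 12, with 20 sites, lie outside these runs. The runs differed in how members and other genes compared. Beside ZNF266 and ZNF317, 12 other genes had 0 sites in 451 kb, whereas in the run from 11.5 to 12.6 Mb, where members had 0.650 sites per 100 kb, 4 other genes had 6 sites, 13.3 per 100 kb. In the run from 55.5 to 56.7 Mb, 20 other genes had 16 sites and the members 1. Among the C2H2 genes of chromosome 19 with other kinds of symbols (ZFP, ZSCAN, ZIK and ZBTB genes), 12 had a strand and 0 had a site. The 75 genes were set apart by symbol only, and several of these C2H2 genes lie within the runs. They are ZFP82, ZFP30, ZSCAN5A, ZSCAN5B, ZIK1, ZSCAN1, ZSCAN4, ZSCAN18 and ZSCAN22, so the 75 and the 12 genes overlap. Of the member sites, 5 also lay in another protein-coding gene on the same strand. These genes were LOC122539214 and ZNF765-ZNF761, both with other symbols and in the run that contains ZNF83. The densities compared here therefore share sites.

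ZNF266, a zinc finger gene on the minus strand between positions 9412429 and 9435573, had the most sites, 13, which is 0.562 per kb of its span. Its sites fell into 2 zones. The first 5 lay 0.659 to 1.73 kb after the 5′ end of the gene, and the other 8 between 7.85 and 3.36 kb before the 3′ end. The 13571 nt between the zones had no site. Within the second zone, 3 sites lay between positions 9420230 and 9420278, with steps of 8 and 36 nt.

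ZNF146, on the plus strand between 36214723 and 36238768, had 12 sites, 0.499 per kb. It encodes OZF, a small protein that consists almost wholly of zinc fingers and has no KRAB domain. A group of 8 of its sites lay close together, between 36228688 and 36229109, in steps of 11, 34, 112, 44, 44, 35 and 137 nt. Another 3 sites lay 20.5 to 20.7 kb before the 3′ end and 1 lay 3.13 kb before it. All 12 sites also fell in the span of ZNF565, which overlaps ZNF146 on the other strand and had 0 sites on its own strand. These 12 made up nearly all of the 13 sites in member spans on the strand opposite to the gene; the other was a plus-strand site in ZNF529.

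ZNF83, on the minus strand between 52612377 and 52690496, had 11 sites, but over a span of 78.1 kb, so its density was 0.141 per kb. The last 8 sites lay within 6.40 kb of the 3′ end, and 5 of them, between 52616845 and 52616892, formed the cluster with the most sites in any member. The 3 sites further upstream also lay in LOC122539214, a protein-coding gene on the same strand, and their gene is uncertain. Without the sites that lie in more than 1 gene on a strand, ZNF83 had 8.

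The other members among the 10 with the most sites had 6 to 8 each, where ZNF226 holds the last place by symbol order in a tie at 6 sites with ZNF529 and ZNF544. ZNF317 had 8 sites, 0.348 per kb, and all 8 lay in a stretch between 6.85 and 4.48 kb before the 3′ end. ZNF160, whose protein has been described as a repressor of TLR4 transcription, had 8 sites in 4 clusters, 6 of them between 20.2 and 19.6 kb before the 3′ end. ZNF100 had 8 sites in 3 places, 38.5, 21.4 and 5.21 to 5.27 kb before the 3′ end. ZNF493 had 7 sites, 0.230 per kb, all in the 5′ part of the gene, with the one nearest the 3′ end still 22.5 kb away from it. ZNF226 had 6 sites, in 2 clusters 29.5 and 24.0 kb before the 3′ end. ZNF431 had 7 sites, 6 of which lay within 13.4 kb of the 3′ end.

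ZNF274, which binds the 3′ ends of other zinc finger genes and recruits SETDB1 to them through TRIM28, had 7 sites over 30.5 kb, 0.229 per kb. A single site lay 0.796 kb after its 5′ end, 2 sites lay 32 nt apart at 26.6 to 26.7 kb before the 3′ end, and the last 4 lay between 6.89 and 2.06 kb before it. These genes share no single layout: ZNF317 was bound near its 3′ end, ZNF493 and ZNF226 far from it, and ZNF266 and ZNF274 in 2 separate zones. ZNF83 also showed 2 zones, but all sites of its upstream zone also lie in LOC122539214.

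**Figure D4:**
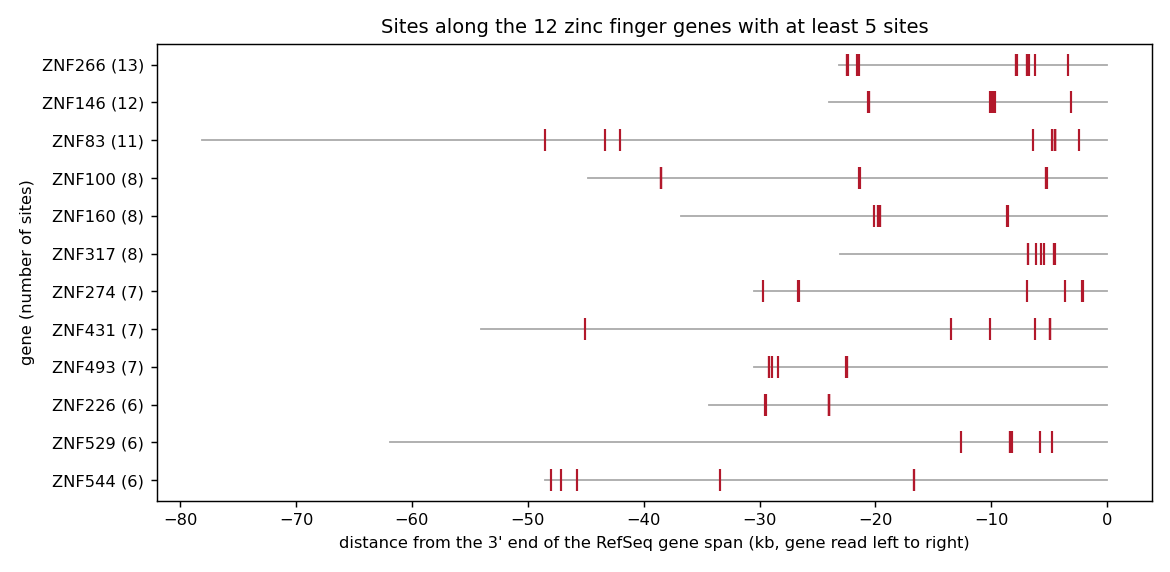
Sites (red ticks) along the 12 members with at least 5 sites, drawn as grey lines to scale and read in the direction of transcription; the x axis is the distance from the 3′ end of the RefSeq span in kb. In none of the 12 does a site lie within 2 kb of the 3′ end, and ZNF266, ZNF83 and ZNF274 show separate groups of sites. The upstream sites of ZNF83 also lie in LOC122539214.

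The other members with a strand that had been listed by name had 0 to 4 sites. ZNF91, which represses SVA retrotransposons, had 1 site in 90.5 kb, 34.1 kb before its 3′ end. ZNF93, which represses a group of LINE-1 elements, had 2 sites in 34.6 kb, and ZNF85 had 2 in 27.4 kb. ZNF43, of the same cluster as ZNF91, had 0 in 47.1 kb. ZNF224, a KRAB protein that interacts with the tumour suppressor WT1, had 3 sites in 15.5 kb, and ZNF260, which consists mainly of zinc fingers, had 2 in 17.6 kb. ZNF507, which lies outside the 10 runs of at least 5 members, had 4 sites in 42.1 kb. ZNF382 and ZNF528 had 0.

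The longest members without a site were ZNF536 (488 kb), ZNF69 (92.4 kb), ZNF568 (81.6 kb), ZNF331 (77.0 kb) and ZNF730 (72.0 kb). ZNF536 is known as a repressor of neuronal differentiation and is expressed mainly in brain, and ZNF331 is an imprinted gene. Members with a site were longer, with a median of 29.5 kb against 20.1 kb for those without.

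Of the 30 members without a given strand, 6 had a site on either strand, 7 sites in all. ZNF473, whose protein takes part in the 3′ end processing of histone messenger RNA together with the U7 small nuclear ribonucleoprotein, had 2. ZNF253, ZNF30, ZNF480, ZNF665 and ZNF211 had 1 each, and ZNF649 was among the 24 with 0.

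Within genes, members had a larger share of their sites in the first 10% of the span than the other genes of the chromosome. In the last 10% the share of sites was alike, but it came from a smaller share of genes. The last 10% of the span held 29 of 213 sites, 13.6% (9.65% to 18.9%), the same as in the other chromosome 19 genes, 13.6% (12.3% to 14.9%). These 29 sites came from 16 of the 74 members with a site (21.6%), the largest group from ZNF83. In the other genes, 115 of 318 (36.2%) had a site there. For genes of at least 20 kb the counts were 15 of 57 members (26.3%) and 59 of 142 other genes (41.5%). ZNF genes elsewhere had 5.27% (3.85% to 7.18%) in the last 10%, an interval below that of the members. The first 10% held 22 member sites, 10.3% (6.92% to 15.1%), against 3.90% (3.22% to 4.72%) in the other chromosome 19 genes, and these intervals did not overlap. The 22 sites came from 12 members, 5 of them from ZNF266, and without that gene the share was 8.50%. Counted by genes, 12 of 74 members with a site (16.2%) and 45 of 318 other genes (14.2%) had one in the first 10%. Among genes of at least 20 kb these were 9 of 57 members (15.8%) and 10 of 142 other genes (7.04%), with 9.52% (6.11% to 14.6%) and 1.97% (1.38% to 2.80%) of the sites. At a fixed distance, within 2 kb of the 5′ end, the shares of sites were 8.45% (5.41% to 13.0%) in members and 7.81% (6.83% to 8.90%) in the other genes, whose spans are shorter. ZNF genes elsewhere had 9.12% (7.20% to 11.5%) of their sites in the first 10% of the span and 10.7% (8.61% to 13.2%) within 2 kb of the 5′ end.

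Few member sites lay close to the 3′ end itself. Within 2 kb of the 3′ end lay 8 sites, 3.76% (1.92% to 7.23%), from 7 members, and this stretch was 5.99% of the summed span of members with a site. In the other chromosome 19 genes it held 16.6% (15.2% to 18.1%) of the sites in 7.80% of the span. In genes of at least 20 kb the shares were 3.17% (1.46% to 6.75%) and 6.63% (5.48% to 7.99%), whose intervals overlapped. ZNF genes elsewhere had 2.85% (1.85% to 4.36%) there. The stretch 2 to 10 kb before the 3′ end held 92 member sites, 43.2% (36.7% to 49.9%), in 23.5% of the span, and 39 of the 74 members had a site in it. The other genes of the chromosome gave a like share, 42.0% (40.1% to 43.9%), in 27% of the span. ZNF genes elsewhere gave 30.1% (26.8% to 33.5%) in 18.2% of the span. ZNF714 was an exception in having 2 sites only 0.140 and 0.148 kb from its end.

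**Figure D5:**
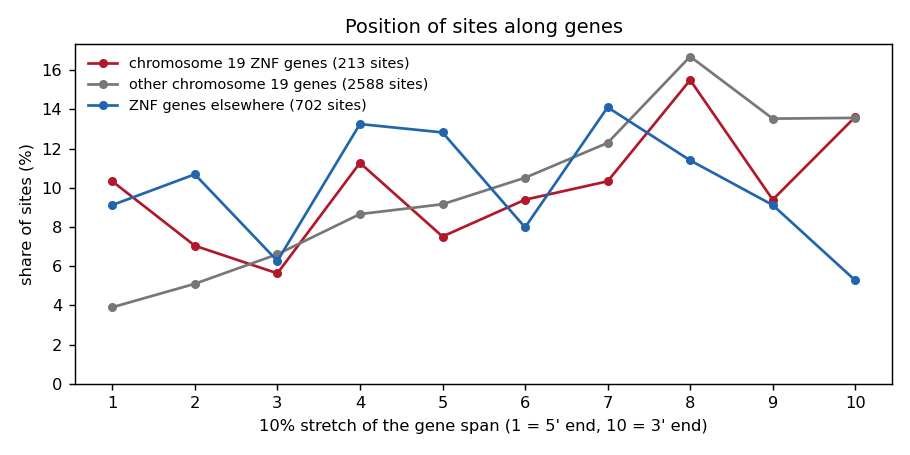
Share of sites (y axis, %) in each 10% of the gene span from the 5′ end (1) to the 3′ end (10), for the 213 sites of the chromosome 19 ZNF genes and the sites of both comparison sets. The share in the first 10% is 10.3% in the chromosome 19 ZNF genes and 3.90% in the other chromosome 19 genes, and in the last 10% both are at 13.6%.

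Sites in members were often single. Joining sites up to 60 nt apart gave 162 clusters, of which 125 (77.2%) were single sites, 27 had 2 sites and 10 had 3 or more. In the other chromosome 19 genes 70.5% of clusters were single, and in ZNF genes elsewhere 65.0%. A gene with 1 site can only give a single cluster. That held for 43.2% of members with a site and 20.8% of the other chromosome 19 genes with a site. Between neighbouring sites of a gene, 36.7% of the 139 gaps in members were at most 60 nt. The other chromosome 19 genes gave 34.6% of 2270 gaps, and ZNF genes elsewhere 42.0% of 595. Pairs of member sites 25 to 45 nt apart numbered 33, while 6 were 46 to 66 nt apart, a range of the same width, which gives a ratio of 5.50. The ratio was 2.38 (421 against 177 pairs) in the other chromosome 19 genes and 3.62 (163 against 45) in ZNF genes elsewhere. The 33 pairs came from 15 members, with 5 each from ZNF146 and ZNF83 and 4 from ZNF226. Pairs in 1 cluster share sites, so these ratios were not tested against each other. At the longer spacing there were 9 pairs 140 to 180 nt apart and 8 pairs 60 to 100 nt apart, which is too few to compare.

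One member site could be read in sequence, because it lay in a RefSeq start window, the stretch from 250 bases before to 50 bases after an annotated start. Of 268 such windows of members, 1 held a site, and 14 of the 2585 sites of the other chromosome 19 genes also lay in one. The site belonged to ZNF446, the last member on the chromosome, named here after its values were seen, whose only site was at 58477125 to 58477129 on the plus strand. The 100 bases up to an annotated internal start at position 58477179 are shown because they contain the site and its downstream surroundings, in RefSeq GRCh38.p14, chr19:58477079-58477178, plus strand, 5′ to 3′, with the 5 nt site in capitals.
ZNF446: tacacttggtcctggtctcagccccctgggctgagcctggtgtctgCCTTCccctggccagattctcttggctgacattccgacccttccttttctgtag

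The centre of this site lay 52 nt before the annotated start. The bases directly before the start were AG, the letters that end an intron, which held for 4.78% of the 35116 RefSeq windows, and 17 of the 20 bases before that AG were pyrimidines. A search for CTNAC, a short form of the branch point consensus, on both strands found 1 match in the window, on the gene's strand between the site and the start, with its A 26 nt before the start. Windows with this match on their own strand made up 56.4% of all, and on either strand 82.1%, so the match alone is no sign of a branch point.

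Most genes of the partners through which KRAB zinc finger proteins act had sites. In a list of 30 genes for TRIM28, SETDB1, HP1, HUSH, NuRD and related chromatin proteins, 27 had a site and 22 had at least 5, with a median of 14.5 sites per gene, beside 40.3% and 24.7% of all protein-coding genes with a strand. TRIM28 was counted on either strand, and without it 26 had a site. DNMT1, the maintenance DNA methyltransferase, had 65 sites, TASOR, a HUSH subunit, had 42, and SETDB1 had 23. TRIM28, whose strand is not given, had 21 sites in 6.65 kb. CHD3, CHD4 and MBD3, all NuRD subunits, had 0. Over all 216 members with a strand the median was 0 sites. The list was not matched to the members in length, with a median span of 42.0 kb, or in expression.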

How the data were processed

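One merged list of SF3B1 iCLIP binding sites in K562 cells was used. Per the file headers, its sites are 5 nt wide, merged, and found in every replicate of one or the other condition. The deposited score is 0 throughout and was not used. The submitters' processing notes name FastQC 0.11.8, STAR 2.7.3a and 2.6.1b, UMI-tools 1.0.0, bedtools 2.27.1 and builds GRCh38.p10 and GRCh38.p12, without role or order; the site caller and the handling of reads that map to several gene copies are not given in the sources used here. Positions are 1-based, and the centre of a site was its position. Gene spans came from RefSeq (GRCh38.p14), strands from the RefSeq table of gene starts. Exons were not used, nor were protein sequences, so the planned zinc finger counts, KRAB matches and protein identities were not made.

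Results are counts and shares with 95% Wilson intervals and densities with exact 95% Poisson intervals, without tests. Named genes were the 10 members with the most sites and the 5 with the most sites per kb among those with at least 5. The 5 longest without a site and a list of 15 were also named. Named after their values were seen were ZNF714, ZNF446, ZNF565, ZNF529, ZNF444, LOC122539214 and ZNF765-ZNF761. The same holds for C2H2 genes with other symbols, members bounding a stretch and members without a strand. Members, lists and spacing spans were chosen with earlier results of these data known. Site assignment was checked on 874 simulated sites placed inside the spans of a part of the 1185 chromosome 19 genes. All 874 were recovered in their gene, and the counts of the 1185 genes equalled those of a direct search. This checks the code only. Alternatives changed the position, merging, strand, overlap and gene set. Python 3.11.15, NumPy 2.4.6, pandas 2.3.3, SciPy 1.17.1 and matplotlib 3.10.9 were used.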

Additional observations from a re-analysis of the deposited data

How the results depend on the processing

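Of 77 recalculations of 11 results, 64 stayed within the interval of the main value (counts within 1.5 times) and 13 moved. A change in the direction of a difference between gene sets was not looked for. The position by 5′ end, merging of touching sites, 1 site per running number, removal of sites in more than 1 gene and counting on either strand moved none of the 11; the share of members with a site lay between 32.9% and 34.3% and the number of their sites between 201 and 233. Requiring 2 or 5 sites lowered the share to 19.4% and 5.56%, since fewer genes qualify. The other chromosome 19 genes gave 26.0% and 16.0% at these settings, above the members, but 32.8% against 34.3% at 1 site. By length, the share was 15.4% under 10 kb, 21.0% at 10 to 20 kb, 42.7% at 20 to 40 kb and 48.7% from 40 kb, and the density 2.15, 2.14, 4.84 and 2.43 sites per 100 kb. Without ZNF266, ZNF146 and ZNF83, a choice made after seeing the data, the density was 2.82 per 100 kb. Protein features were not run. No paired analysis was possible because all replicates were merged into single positions, which also prevents leaving one out. Depth is unknown, so absence of a site is not absence of binding.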
